A study of Mus musculus with 2 samples.

Results

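The Prdm16 locus carried 55 of the 34139 regions that the authors listed as differing in DNA methylation between CD137+ and PDGFRα+ adipose progenitors of the mouse. These are the regions that overlap the RefSeq gene body or the 50 kb on either side of it. The gene (Gene ID 70673) spans chr4:154316122-154637360 of mm10, a length of 321.2 kb, and is transcribed towards lower positions from a listed start at 154636873. The locus was selected on its number of regions and their signs in this same list, so both are given as a description, with no test.

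Whole-genome bisulfite sequencing, which reads methylated cytosines as those left unconverted, was done on 1 library of CD137+ cells and 1 library of PDGFRα+ cells. Both came from C57BL/6 adipose tissue, were sorted with magnetic beads from subcutaneous or visceral fat, were grown and put through an adipogenic cocktail, and carried the label DEX treatment (dexamethasone, a synthetic glucocorticoid). The depot behind each library, the number of animals pooled and their age are not stated in the labels used here, so a difference of depot cannot be told apart from the sorted antigen. CD137, the product of Tnfrsf9, is a surface marker linked to beige fat precursors, and PDGFRα (CD140a), the product of Pdgfra, marks adipose progenitors more widely. Both libraries share the DEX label, so the regions compare cell populations and say nothing of the drug. The sorted identities could not be checked against marker expression, because only methylation regions were used here. With 1 library a group there is no replicate spread and no p-value was computed.

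Each region has a signed score that is the authors' own value. It ranks regions within the list and is not a methylation level. What the sign stands for is not stated. The list is named with the PDGFRα+ sample before the CD137+ sample, and under a subtraction in that order, negative regions would be those less methylated in PDGFRα+ cells. The read depth is unknown. The 95% Wilson intervals below cover counting error alone, and regions of the same libraries are not independent.

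PRDM16 is a zinc finger protein of the PR domain family that acts as a transcriptional coregulator. It joins C/EBPβ, PPARγ, PGC-1α and EBF2 at genes of brown and beige fat and, with the CtBP corepressors and the methyltransferase EHMT1, holds down genes of muscle and white fat. In subcutaneous fat it is known as a determinant of the beige, heat-producing adipocyte.

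The regions nearest to the start of the gene stood on both sides of a stretch of 3013 bp that itself held none. Prdm16 starts beside a divergent long noncoding gene, Prdm16os, whose listed start is at 154637580. The 250 bases before each of these starts are shown because they lie in that stretch, with every CpG, the dinucleotide at which methylation is mainly read, in capitals. Both are from RefSeq (GRCm38.p6, the assembly that mm10 names) and run 5′ to 3′ on the strand of their gene. The Prdm16 bases are chr4:154636874-154637123 on the minus strand and the Prdm16os bases are chr4:154637330-154637579 on the plus strand. The annotated Prdm16 gene reaches 487 bp upstream of its listed start, so the Prdm16 bases lie inside the gene body.
Prdm16: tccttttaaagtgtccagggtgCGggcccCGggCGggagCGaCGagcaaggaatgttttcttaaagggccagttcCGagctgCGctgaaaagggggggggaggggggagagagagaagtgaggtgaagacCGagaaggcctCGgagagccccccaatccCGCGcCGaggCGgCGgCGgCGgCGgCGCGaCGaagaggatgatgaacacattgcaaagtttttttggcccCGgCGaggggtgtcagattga
Prdm16os: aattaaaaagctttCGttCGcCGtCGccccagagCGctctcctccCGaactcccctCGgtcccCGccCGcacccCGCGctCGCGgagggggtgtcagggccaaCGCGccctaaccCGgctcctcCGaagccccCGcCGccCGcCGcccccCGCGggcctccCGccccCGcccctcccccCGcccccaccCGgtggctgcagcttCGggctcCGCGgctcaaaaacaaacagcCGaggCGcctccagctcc

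The Prdm16 window held 22 CpGs and was 62.4% G and C, and the Prdm16os window held 32 CpGs and was 74.8% G and C. Over 21263 listed starts of protein-coding genes the median was 10 CpGs in such a window, and the Prdm16 window stood at percentile 81.6. The listed start of 5930403L14Rik, a noncoding gene inside Prdm16 that runs the same way, lies 506 bp downstream of the Prdm16 start, and its window held 38 CpGs. The 3 windows lie within chr4:154635096-154638108, the stretch with no listed region, and CpGs outside the windows were not counted. The nearest region to the Prdm16 window was 986 bp away. A motif search on both strands of the Prdm16 window found the TEAD hexamer GGAATG once, beginning 201 bases before the start. That hexamer was found in 11.7% of the windows of protein-coding genes. The hexamer AGAACA of the glucocorticoid receptor had no match in these letters, and 13.7% of windows held it. A match here is a description of the letters and not a bound site.

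Within 5 kb of the Prdm16 start there were 9 regions, all negative, over a span of 10.2 kb. Downstream of the start, the region at chr4:154634474-154635095, 622 bp wide and 1.78 kb inside the gene, had the most negative score of the locus at -627. It was followed by the widest region of the locus, 761 bp at chr4:154632930-154633690 with a score of -220.3, and by a region of 139 bp with a score of -49.3. All 3 also lie in 5930403L14Rik. Upstream of the start, 6 regions lay 1.24 to 4.81 kb away, all within Prdm16os. The nearest of them, chr4:154638109-154638328, scored -116. The others scored -31.3, -68.5, -142, -129 and -152 with growing distance. The regions at chr4:154638440-154638499 and chr4:154638598-154638742 formed the closest pair of the locus, with 98 bp between them. Strength was thus unequal on the sides of the start, with the largest score on the Prdm16 side.

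**Figure D1:**
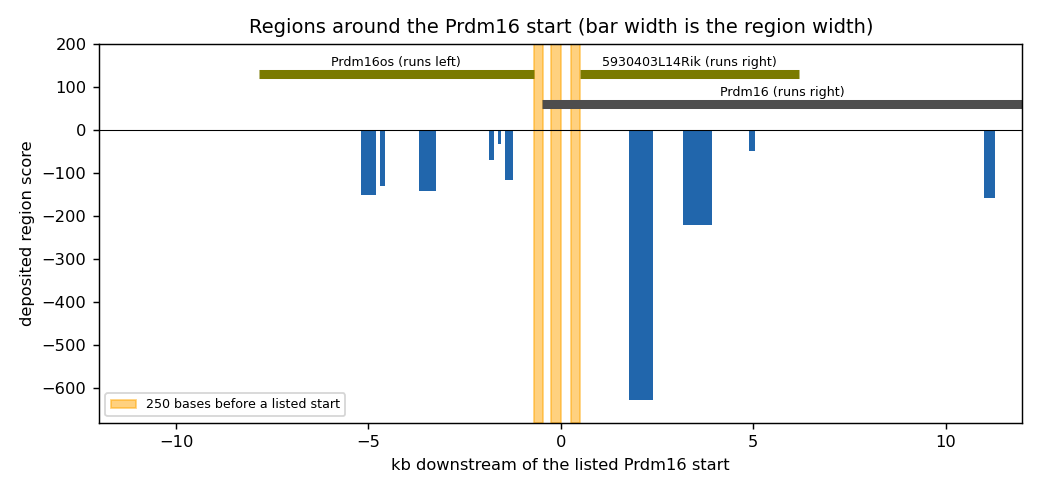
Regions within 12 kb of the listed Prdm16 start, drawn with their deposited score (vertical axis, no unit) at their distance from the start (horizontal axis, kb); the width of each bar is the width of the region, the lines above mark genes and the shaded columns mark the 250 bases before 3 listed starts. The 9 regions within 5 kb of the start are negative and the shaded columns fall in the gap of 3013 bp between them.

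Few genes had as many regions at their start. Of 17492 protein-coding genes with a listed start, 12.6% had any region within 5 kb of it. Only Hoxa10, a body-axis homeobox gene, also had 9, again all negative. En1, with 7 of 8 negative, and Foxc1, with 8 regions of which none were negative, followed. The other HoxA genes near the top of this ranking share regions with their neighbours in the cluster.

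Of the 55 regions at the locus, 49 were negative and 6 positive. The negative share was 89.1% (78.2 to 94.9), beside 67.4% of all regions of the list and 68.0% of the 1995 regions of chromosome 4. The gene body held 45 regions, 40 of them negative, which covered 8608 bp; 28.9% of all protein-coding genes had any region in the gene body. The 50 kb upstream of the gene held 9, of which 8 were negative, and the 50 kb downstream held 1, which was negative. Both signs were therefore present in the gene and upstream of it, with negative ones in the majority. At the edges of the window, the last region inside on the upstream side scored -40.6 at 24.0 kb from the gene and the first outside scored 139 at 56.2 kb. On the downstream side the last region inside, in the guanine nucleotide exchange factor gene Arhgef16, scored -28.0 at 30.9 kb, and the first outside scored 57.5 at 55.0 kb.

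**Figure D2:**
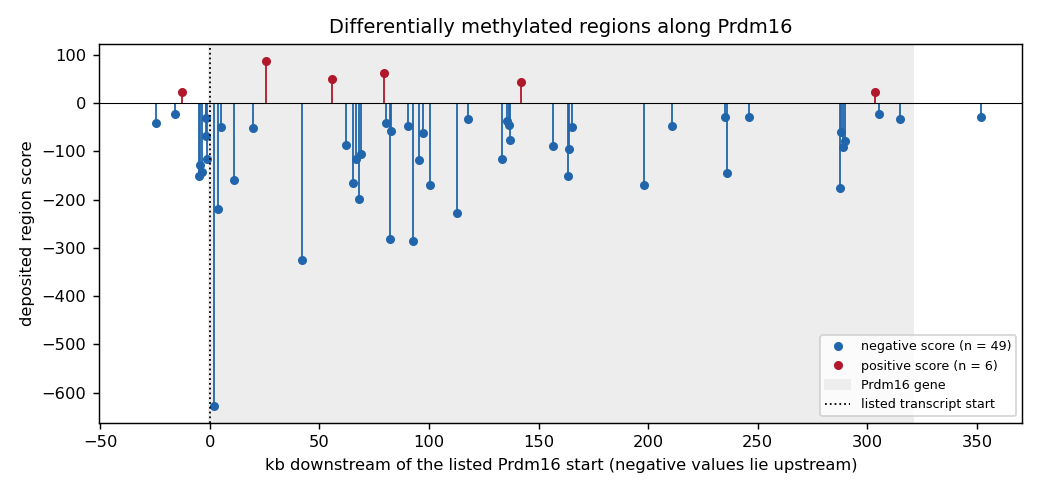
Deposited score of each of the 55 regions (vertical axis, no unit) against the distance of its midpoint from the listed Prdm16 start (horizontal axis, kb, upstream to the left). Each stem is 1 region, blue for the 49 negative and red for the 6 positive scores, and the shaded band is the gene; the lowest stem, -627, stands just inside the start.

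The strong regions of the locus were all negative. An absolute score of 100 or more was reached by 22 of the 55 regions (40.0%), beside 15.5% of the list, and each of the 22 was negative. In the list as a whole 3550 of 5281 such regions were negative. After the region near the start, the most negative scores all lay in the portion of the gene nearer its start. They were -324 at chr4:154594687-154595047, 41.8 kb from the start, -286 at chr4:154543989-154544312, 92.6 kb from it, -281 at chr4:154554444-154555168, 81.7 kb from it, and -227 at chr4:154523953-154524315, 112.6 kb from it. The region of -281, 725 bp wide, is also inside Gm13133, a noncoding gene nested in Prdm16 on the other strand. Ranked by absolute score over the list, the region of -627 was number 62 and the region of -324 number 297. Because the locus was selected on its number of regions, number and size were not weighed against each other.

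The 6 positive regions were weak and narrow. The strongest scored 86.6 at chr4:154611210-154611315, 25.6 kb inside the gene. The others in the gene scored 61.7 at chr4:154557134-154557231, within Gm13133, 50.5 at chr4:154581020-154581116, 43.9 at chr4:154494731-154494796 and 22.8 at chr4:154333428-154333488. The last, at chr4:154649506-154649583 in the noncoding gene Gm13110 upstream, scored 22.8. Their widths ran from 61 to 106 bp. Each positive region stood alone between negative ones, so that reading along the locus the sign changed 12 times and no 2 positive regions were neighbours. The longest run of negative regions was 14.

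Wider regions had larger scores here, as in the whole list. The median width was 131 bp at the locus and 112 bp over the list. Of 17 regions under 100 bp, 12 were negative, and their median absolute score was 36.5, beside 34.3 for the list's regions of that width. Of those at least 100 but under 200 bp wide, 21 of 22 were negative, with a median of 87.6 beside 57.8. At 200 bp or wider all 16 were negative, with a median of 172 beside 99.1. The medians at the locus thus lay above those of the list in the wider classes, and close to it among the narrow regions. Over the 55 regions the absolute score followed the width with a Spearman rho of 0.838, beside 0.652 over the list. This correlation across regions of the same libraries is a description.

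The regions lay close together. The median gap between neighbours at the locus was 3001 bp, whereas it was 32.2 kb over the list. Gaps of 1 kb or less made up 17 of 54 (31.5%), beside 7.73% in the list. When regions no more than 5 kb apart were put together, 34 of the 55 fell into 7 groups of 3 or more, and 6 of these groups were wholly negative. With a limit of 10 kb there were also 7 such groups, which held 46 regions, but only 2 of them were wholly negative, and with 2 kb there were 7, of which 6 were. The largest was the group of 9 around the start. The next, with 5 regions each, spanned 6.76 kb at chr4:154568000-154574756 and 10.1 kb at chr4:154536506-154546582, and their lowest scores were -198 and -286. A group of 4 at chr4:154346803-154349612, toward the far end of the gene and 287 kb from its start, had scores from -60.0 to -177. It was followed by the longest empty stretch of the locus, 41.0 kb up to a region that scored -29.6. With the 5 kb limit, the group with mixed sign was that in Gm13133, with 3 negative and 1 positive region.

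Inside the gene more regions lay in the portion nearer the start, but their number did not fall steadily along the gene. Of the 45, 30 (66.7%) lay in the 160.6 kb nearer the start and 15 in the 160.6 kb beyond. The gene was also cut into 10 equal stretches of 32.12 kb. The first held 6 regions, the second 3, the third 11 and the last 5, and every stretch held at least 2. The third stretch, 64.2 to 96.4 kb from the upper end of the gene, was the only one with more than 6 and covered 2574 bp, more than any other. Among genes of like length, described next, 31 had a known strand and at least 10 regions in the gene. Their median share in the start portion was 41.7% (quartiles 31.7 and 56.1), and 3 of the 31 had a share as high as that of Prdm16. Exons, introns and untranslated parts could not be told apart, because the gene table used gives gene ends only.

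**Figure D3:**
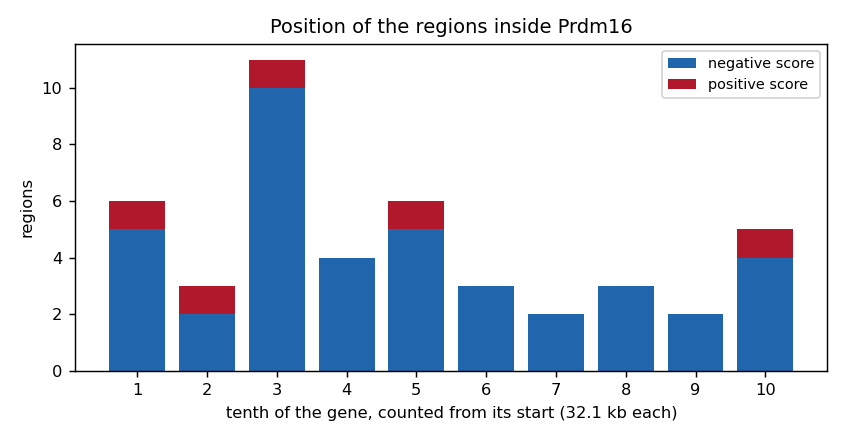
Number of regions (vertical axis) in each of 10 equal stretches of the Prdm16 gene counted from its start (horizontal axis), with negative scores in blue and positive scores in red. The third stretch holds 11 regions and each of the others holds 2 to 6.

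Prdm16 had more regions than any of 200 protein-coding genes of about its length. Those genes, the nearest in length, were 280 to 362 kb long and had a median of 6.5 regions in the gene and the 50 kb on either side (quartiles 3.75 and 10), with a highest count of 33, and 6 of them had none. Any region at all was found in such a window for 68.5% of protein-coding genes. Regions at Prdm16 covered 10259 bp, beside a median of 994 bp and a highest value of 7262 bp among the 200. Its 22 regions of absolute score 100 or more stood beside a median of 1 and a highest count of 9. Its strongest region had a larger absolute score than that of any of the 200, whose median was 107. The count of 55 was also the highest of all 21887 protein-coding genes, but that ranking is not matched on length. Far shorter genes came close, with 45 regions at Hoxa3 (44.0 kb long) and 43 at Hoxa5 (2.83 kb long), so regions lay denser there. At absolute scores of 100 or more, Hoxc8 had 21 beside the 22 of Prdm16. For sign, Prdm16 was less apart. Of the 58 like-length genes with at least 10 regions, 10 had a negative share as high as its 89.1% or higher, and the median was 69.6%. A run of at least 14 regions of 1 sign was found in 4 of the 200.

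**Figure D4:**
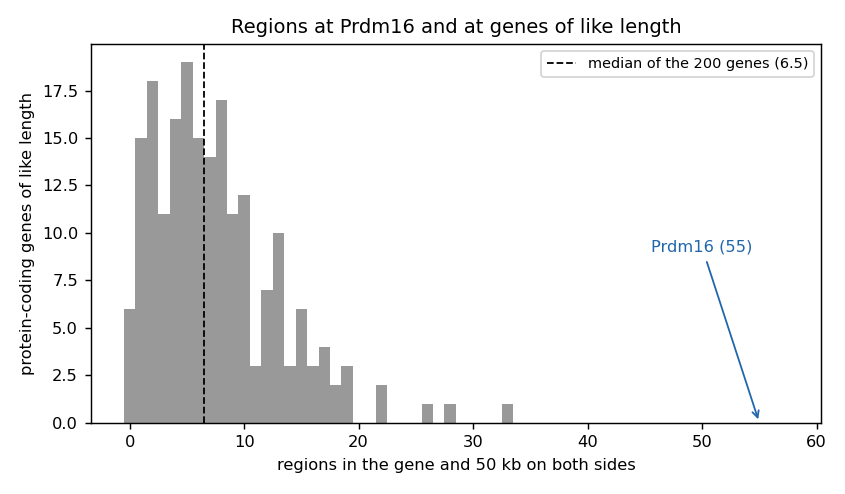
Number of protein-coding genes (vertical axis) by their count of regions in the gene and 50 kb on both sides (horizontal axis), for the 200 genes closest to Prdm16 in length. The dashed line is their median of 6.5, and the arrow marks Prdm16 at 55, beyond the highest of the 200 at 33.

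Among the like-length genes with most regions, the sign went different ways. Tcf4, a basic helix-loop-helix factor gene, had 33 regions, of which 3 were negative. Zbtb7c had 20 of 26 negative, Apbb2 had 8 of 22 and Pde7b had 11 of 22. A large number of regions thus came with either sign.

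By negative share alone, 101 other protein-coding genes with at least 20 regions in their window could be set beside Prdm16, and 18 of them had a share as high or higher. The closest were Lsamp, a neural cell adhesion gene (25 of 28 negative, 89.3%), Hoxa5 (38 of 43), Hoxa4 (36 of 41), Hoxa6 (38 of 42) and Tbx5, a forelimb and heart T-box gene (20 of 22). The 3 HoxA genes share their regions, since their windows overlap. Lsamp is 2197 kb long, so its regions were far sparser than those of Prdm16.

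Among the neighbours of Prdm16, the nearest, Prdm16os at 0.22 kb, held the 6 negative regions described above (strongest -152). Farther upstream, the noncoding Gm13110 had 1 of each sign, and Actrt2, a testis-type actin-related gene 29.1 kb away, had none. Downstream, Arhgef16 had 1 and the large extracellular gene Megf6, 105 kb long and 40.4 kb away, had 7, of which 4 were negative and the strongest scored -75.3. Farther out but within 250 kb, Trp73, a p53 family gene, had 1 positive region of 73.6, and Wrap73, Tprgl, Ttc34 and Mmel1 had none. The noncoding or pseudogene entries Gm26036, Gm13132, Gm52687 and Gm13112 within that distance had none either. Among genes nested in Prdm16, Gm13133 held 4 regions and 5930403L14Rik held 3, while Gm52688 and Gm52689 held none. Regions in these nested genes and in Prdm16os cannot be assigned to a single gene by position. Per 100 kb there were 14 regions in the gene, 18 in the 50 kb upstream and 2 in the 50 kb downstream, where chromosome 4 as a whole had 1.28. The density was thus as high just upstream as inside the gene, and fell off beyond its far end.

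Other PRDM family genes also had regions, most of them negative. Of 16 paralogs and relatives, 9 (56.3%) had a region inside them or at most 5 kb away, beside 35.1% of all protein-coding genes. The family's genes had a median length of 70.7 kb, against 17.2 kb over all protein-coding genes, so the counts are not matched on length. Their median was 2 regions a gene, beside 0. A region of absolute score 100 or more was found at 5 of the 16, beside 10.8% of protein-coding genes. The closest paralog, Mecom (PRDM3, also EVI1), had 20 regions in 558.5 kb, 17 of them negative, with scores down to -196. In the same window Prdm16, which is shorter, had 51. Prdm6, a smooth muscle regulator, had 10 of 13 negative with a strongest score of -430. Zfpm2 (FOG2), a GATA cofactor, had 12, all negative but none stronger than -79.5. Its relative Zfpm1 (FOG1) had 3, including -851, a larger absolute score than any at Prdm16. Prdm1 and Prdm10 had 3 negative regions each, with strongest scores of -88.0 and -100.3. Prdm11 had 3 of 4 negative, but its strongest, 222, was positive. Over the 62 regions of the family without Prdm16, 82.3% (71.0 to 89.8) were negative. The negative majority was thus shared by several relatives, while Prdm16 had the most regions.

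Genes of the proteins that work with PRDM16 were split in sign. Of 20 partner genes, 14 (70.0%) had a region, beside 35.1% of all protein-coding genes. Of their 92 regions, 50 (54.3%, 44.2 to 64.2) were negative, beside 67.4% in the list. Their median length was 91.0 kb, again above that of all protein-coding genes, and their median was 2 regions. Among coactivators, Ppargc1a (PGC-1α) had 11 of 13 negative with a strongest score of -241. Ebf2, which marks brown and beige precursors, went the other way with 19 of 22 positive and a strongest score of 642. Zfp423, a preadipocyte factor that restrains the beige programme, had 11 of 15 positive with a strongest score of 416. The 6 regions of Pparg, the adipogenic nuclear receptor, were all positive, up to 102. Hlx and Zfp516, transcription factors known to promote the thermogenic programme, had 8 and 6 regions, all negative, with strongest scores of -265 and -211. Among corepressors, Ctbp2 had 7 of 8 negative (strongest -73.1), and Nrip1 (RIP140) had 3, all negative (strongest -82.8). Smad3 had 2 of 3 negative, although its strongest region scored 62.0. Cebpb, Ppara, Ctbp1, Kdm1a, Med1 and Skil had none. Prdm16 and Ppargc1a, Hlx and Zfp516 thus had mostly or only negative regions, and so did the corepressor genes Ctbp2 and Nrip1. Most regions at Ebf2, Zfp423 and Pparg were positive. The sign therefore did not separate coactivator from corepressor genes.

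**Figure D5:**
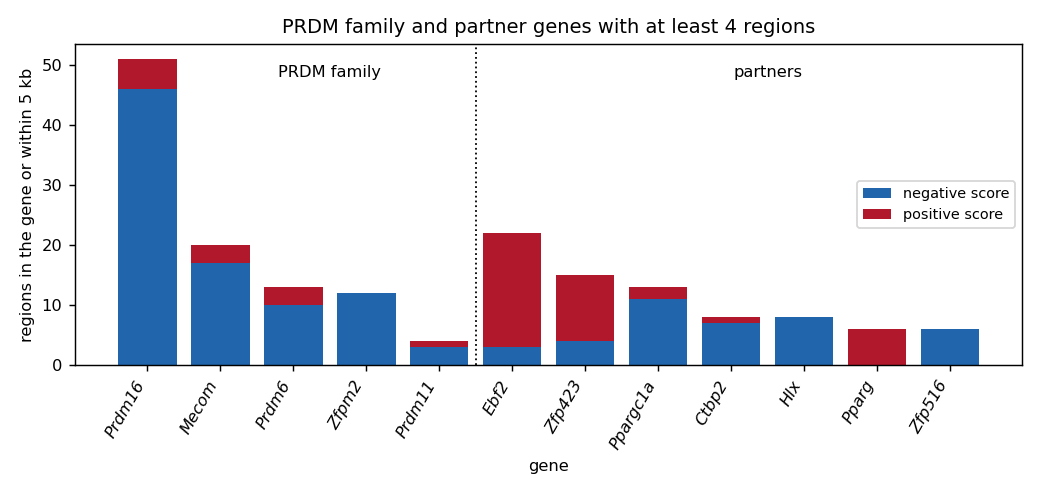
Number of regions in the gene or within 5 kb (vertical axis) for Prdm16 and for the PRDM family and partner genes with at least 4 regions (horizontal axis), with negative scores in blue and positive scores in red. Prdm16 has 51, Mecom 20 and Ebf2 22, and the bars of Ebf2, Zfp423 and Pparg are mostly or wholly positive.

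Genes that regulate PRDM16, its targets and the genes it holds down each had a median of 0 regions, as did all protein-coding genes. Their median lengths were 14.35, 11.31 and 13.12 kb in that order, beside 17.17 kb over all protein-coding genes. A region of absolute score 100 or more was found at 2 regulators, 5 targets and 0 genes held down, beside 10.8% of protein-coding genes. Of 12 regulators, 5 had a region, 8 regions in all, and the median was 0. Bmp7, a signal that induces brown fat, had 2 positive regions, the stronger at 115, and Tcf21, a visceral and white progenitor factor gene, had 1 of each sign, the stronger at 458. Of 20 brown and beige fat targets and markers, 9 had a region (45.0%), and the median was 0. Tbx1, a beige marker gene, had 3 of 4 negative and the most negative score of the list, -2569. Tmem26, another beige marker gene, had 2 negative regions (strongest -226), and the mitochondrial Cox8b had 1 of -186. The potassium channel gene Kcnk3 (231) and the creatine kinase gene Ckb (195) had positive regions. Ucp1, the uncoupling protein gene of thermogenesis, and Tnfrsf9, the gene of the sorted antigen CD137, had none. Of 13 matched genes that PRDM16 is known to hold down in muscle or white fat, 2 had a region. These were Pax7, a muscle progenitor factor gene, with 2 of 3 negative and a strongest score of 89.8, and Col6a1 with 1 of 23.4. In the same window, 35.1% of protein-coding genes had a region, beside 41.7% of the regulators, 45.0% of the targets and 15.4% of the genes held down. With 50 kb on both sides, 9 of the 12 regulators, 19 of the 20 targets and 11 of the 13 genes held down had a region, beside 68.5% of protein-coding genes, so the place of the genes held down relative to this background turned with the window.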

How the data were processed

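Bisulfite sequencing of genomic DNA sheared to fragments by ultrasound was done on 1 CD137+ and 1 PDGFRα+ library, per the labels' protocols. The authors deposited 1 list that gives, for each region, its position and a signed score. Its genome build, per the submitters' processing notes, is mm10. How reads were aligned, how regions were called and at what coverage is not stated in the sources used, so depth is unknown and no coverage filter was possible. The list was read as BED and positions are printed counting from 1. Genes came from a RefSeq table of GRCm38.p6, and starts, strand and sequence from RefSeq windows around listed starts. No genome sequence was used, so CpG content was known only in those windows.

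Regions were counted by any overlap (Python 3.11.15, numpy 2.4.6, scipy 1.17.1). Counts were checked against direct counting for 2923 genes of chromosome 4, with 0 differences. The gene, the lists (82 symbols in 5 lists) and the windows were chosen with earlier results of these data known. Regions named at Prdm16 are the 5 most negative, every positive one, the widest, the nearest to the start and the pairs with the smallest and largest gap, with the other members of the groups described added after their values were seen. Genes named are Mecom, list members with at least 3 regions or an absolute score of 100 or more, neighbours within 250 kb, the 5 like-length genes with most regions and the 5 closest in negative share. Other genes named, including those with no region, were chosen after their values were seen. Some genes that this rule names are not reported here. The symbol Wdnm1 found no gene, and Gyk was found as Gk. No test was made.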

Additional observations from a re-analysis of the deposited data

How the results depend on the processing

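The count of 55 regions was within 1.5 times of 55 for the gene body alone, 5 kb on both sides, midpoints inside the window, regions at least 100 bp wide, and neighbours of 1 sign up to 500 bp apart joined. With only regions of absolute score 100 or more it was 22. The negative share was then 100%, and it was 97.4% for regions at least 100 bp wide. The strongest score was -627 in all 6 alternatives. Prdm16 stood above every gene of like length (percentile 100) in all 7 alternatives tried. The density inside the gene was 1.40 times that of both 50 kb flanks, 1.56 times that of 100 kb flanks, 7.0 times that of the downstream flank, and 0.778 times that of the upstream flank, which reverses the direction. The values for single flanks were added after seeing the data. Groups of 3 or more regions that were wholly negative numbered 6 with a limit of 5 kb and 2 with 10 kb, an alternative added after seeing the data. PRDM family genes with a region numbered 5 of 16 at absolute scores of 100 or more, beside 10.8% of protein-coding genes. Of the 65 partner, regulator, target and held-down genes, 30 had a region, where 35.1% of all protein-coding genes did. At absolute scores of 100 or more, 13 of the 65 had one, where 10.8% of all protein-coding genes did. With 50 kb on both sides, 58 of the 65 had one, where 68.5% of all protein-coding genes did. The 65 were not matched on length, with medians of 91.0 kb for partners and 11.31 kb for targets. No paired analysis was possible because each group has 1 library. Depth, coverage and CpG number per region are unknown, which limits every score.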

Other observations

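Beyond the window, the sign of the regions upstream of Prdm16 differed from that at the gene. In the next 200 kb on that side there were 7 regions, 5 of them positive, at 3.50 per 100 kb. The strongest scored 299 at chr4:154709921-154710359, 72.6 kb from the gene, and the first scored 139. These regions lie between Actrt2 and Ttc34, protein-coding genes that held no region themselves. In the 200 kb beyond the downstream flank, 4 of 8 regions were negative. The negative majority was found in Prdm16 and within 5 kb of it, where 46 of 51 regions were negative. It was not found in the 200 kb stretches just outside the window. Between 5 and 50 kb from the gene, regions were few, with scores of 22.8, -22.0 and -40.6 upstream and -28.0 downstream. The locus was selected with its signs known and the outer stretches held only 7 and 8 regions, so this is a description only.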
